A study of Solanum tuberosum with 100 samples.

Results

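The genes described here are the 100 potato genes whose transcript levels followed those of POT32 most closely from one tuber library to the next. POT32 (PGSC0003DMG400018916, on chromosome 8) encodes a polyphenol oxidase isoform. The genes were chosen by a measured value. Levels were expressed as CPM (a gene's read count scaled to the total of its library), each cross's mean of log2(CPM+1) was subtracted, and the genes were ranked by their Spearman correlation (rho) with POT32 over all libraries. A gene was eligible with a mean of 1 CPM or more and if the study had not annotated it as a polyphenol or catechol oxidase, which left 17199 of 25163 genes, and the 100 highest were taken as members. The correlations that made the choice are therefore given as a description, without a test.

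The 100 libraries, 1 per genotype, came from tetraploid *Solanum tuberosum* tubers of a breeding population of 11 half-sib crosses that shared the parent Crop52. Tubers had been bruised with a falling lead weight. Tissue was taken 2 h later at the site of the bruise, with 3 tubers pooled per genotype. Bruising and time were therefore common to all groups, and no unbruised tuber was measured here. By their labels 33 libraries were high-bruising, 41 were low-bruising and 26 were left out of the study's differential expression analysis. The study scored 2 biological replicates per genotype and sequenced 1 of them. A library was high-bruising when the mean score of the 3 tubers of that replicate was 2 or more. It was low-bruising when that mean was 1 or less, and the other replicate did not enter the grouping. Total counts ranged from 6832655 to 30655033 in high-bruising libraries and from 8065444 to 37849041 in low-bruising libraries, and reached 41650152 in the remaining ones. The groups were far from balanced in some crosses. Cross 2121 held 6 high-bruising and 1 low-bruising library, cross 2165 held 7 and 2, cross 2158 held 2 and 6, and crosses 2170 and 2183 held no high-bruising library. The patatin genes are storage protein genes that mark tuber parenchyma, and their levels differed widely. Means were 1306 CPM for PAT2-K4, 1199 CPM for PAT1-K1, 878 CPM for PAT0409, 266 CPM for PATO and 4.86 CPM for PAT3.

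Polyphenol oxidases are copper enzymes of plastids. They oxidise phenolic compounds to quinones once a blow has broken the compartments that keep enzyme and substrate apart, and the quinones polymerise to the dark pigment of a bruise. Protease inhibitors are among the most abundant soluble proteins of the potato tuber besides patatin, and many of them are induced by wounding and by jasmonate in leaves, where they hinder digestion in insects. Lipoxygenases oxidise polyunsaturated fatty acids released from damaged membranes and provide the precursors of jasmonate and of other oxylipins.

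POT32 varied widely among the libraries. It had between 0.365 CPM, in the low-bruising genotype 2170_1, and 81.6 CPM, in the low-bruising genotype 2159_2, with a mean of 10.1 ± 13.8 CPM (SD, n = 100) and a median of 5.22 CPM. The corresponding raw counts were 7 and 1269 reads, so the lowest libraries were read with few counts. Cross medians were highest in cross 2159 (15.9 CPM, n = 16), followed by 9.95 CPM in cross 2168, 9.53 CPM in cross 2158 and 7.01 CPM in cross 2165. They were lowest in crosses 2175 (2.12 CPM), 2170 (1.96 CPM) and 2183 (1.83 CPM). The order holds for medians only, because the ranges of all crosses overlapped. Differences among crosses made up 39.9% of the variance of POT32 on the log2(CPM+1) scale, and the difference among crosses passed edgeR's quasi-likelihood F test (adjusted p = 2.23e-07). The remaining variance, within crosses, is what the members were chosen to follow.

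**Figure D1:**
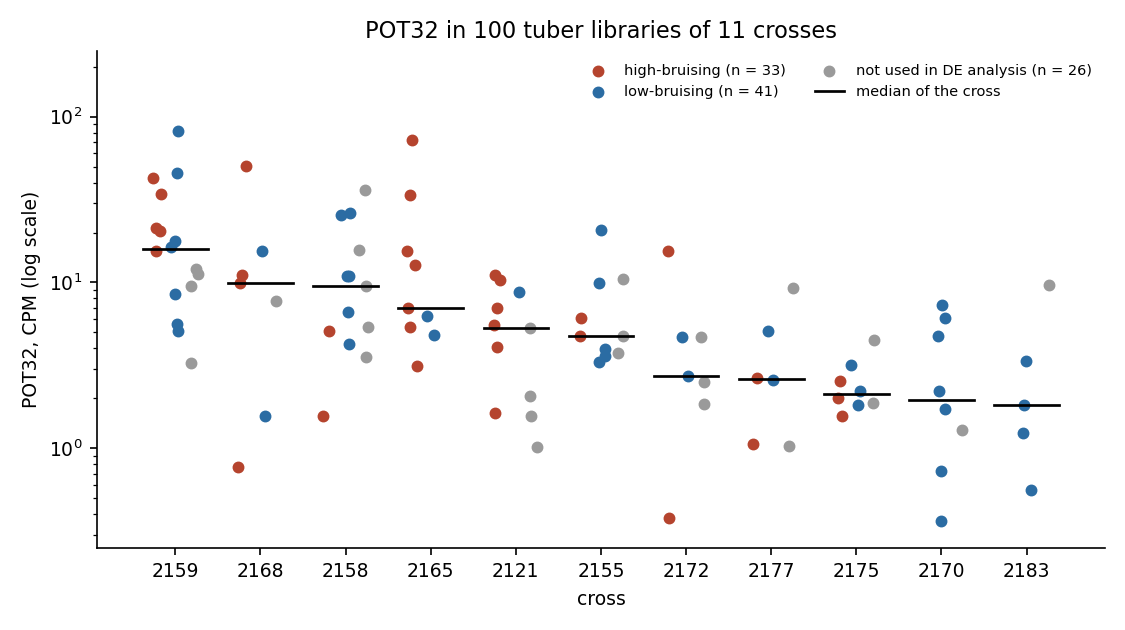
POT32 level (CPM, log scale) in each of the 100 libraries, by cross, with crosses ordered by their median (black line) and points coloured by bruising group. Cross 2159 had the highest median, 15.9 CPM, and cross 2183 the lowest, 1.83 CPM, with high-bruising and low-bruising libraries intermixed within crosses.

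Members had a rho with POT32 between 0.327 and 0.553 with a median of 0.355, whereas the median over all eligible genes was -0.002. Only 4 members reached 0.5, a further 5 lay between 0.45 and 0.5, 14 between 0.4 and 0.45, 31 between 0.35 and 0.4, and 46 lay below 0.35. There was no gap at the edge of the list. The gene ranked 100, PGSC0003DMG400005594, had a rho of 0.327 and the first gene left out, PGSC0003DMG400008913, had 0.326. The study paired names with 8 of the members, 7 of them on its list of candidate genes for bruising and 1 on its list of differentially expressed genes, and the other 92 are known here by identifier only. Both lists were compiled by the study, the second from these same libraries.

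Of the named members 6 were protease inhibitors. PIN2K (PGSC0003DMG400004547, chromosome 3), a type-2 proteinase inhibitor of the wound-inducible family that acts on serine proteases, ranked 2 with a rho of 0.527. KTI-D (PGSC0003DMG400008546, chromosome 12), a miraculin-like protein of the Kunitz inhibitor family, ranked 4 with 0.502. PKPI-A5 (PGSC0003DMG400009513), annotated as aspartic protease inhibitor 5, ranked 5 with 0.480, and CDI (PGSC0003DMG400009511), aspartic protease inhibitor 8, ranked 7 with 0.465. KTEI (PGSC0003DMG400010147), a Kunitz-type enzyme inhibitor, ranked 19 with 0.409, and PGSC0003DMG400010136, annotated as stigma expressed protein and a Kunitz-family peptidase inhibitor, ranked 26 with 0.395. These 4 genes also lie on chromosome 3. Reads were counted only where they mapped uniquely, so values of near-identical members of this multigene family are uncertain.

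Every one of the 10 protease inhibitor genes of the study's lists had a positive rho with POT32, against 49.3% of eligible genes. Of these 10 genes 4 fell short of the list. KTPI, a Kunitz-type proteinase inhibitor whose identifier stands between those of CDI and PKPI-A5, had a rho of 0.272. The cysteine protease inhibitors STKTI and CPI1 had 0.207 and 0.187, and aspartic protease inhibitor 10 had 0.084. The median over the 10 genes was 0.402.

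LOX1-ST-2 (PGSC0003DMG400020999, chromosome 8), a lipoxygenase, ranked 11 with a rho of 0.445. Of the other genes of lipid breakdown on the candidate list, PLA1 (PGSC0003DMG401031759), a phospholipase, had a rho of 0.109 and the triacylglycerol lipase LIPIII27 (PGSC0003DMG400007805) had -0.137. AGPB1 (PGSC0003DMG400031084, chromosome 7), the small subunit of the ADP-glucose pyrophosphorylase that commits glucose to starch, ranked 90 with 0.330, and the starch phosphorylase PHO1A had 0.098. Over all libraries the 5 patatin genes had positive values, between 0.169 and 0.282, against 49.3% of eligible genes, and none was a member. In low-bruising libraries alone the values were -0.106 for PAT1-K1, -0.156 for PAT2-K4, -0.128 for PAT0409 and -0.185 for PATO, but 0.460 for PAT3. In high-bruising libraries PAT3 had -0.0150, and the others lay between 0.355 and 0.473.

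Genes of phenolic synthesis, which supply the substrate of polyphenol oxidases, did not reach the list. The 4-coumarate CoA ligases 4CL2 and 4CL had a rho of 0.277 and 0.193, and HQT, which makes chlorogenic acid, had 0.177. Phenylalanine ammonia-lyase (PAL), the entry enzyme of the pathway, and the peroxidase PEROX had 0.318 and 0.291, but with means of 0.309 and 0.563 CPM they were too low to be eligible. On the list of differentially expressed genes, caffeic acid O-methyltransferase II had 0.184 and anthocyanin synthase had -0.204. Of that list 51 non-oxidase genes were eligible, 29 of them with a positive rho, and 1 was a member. Over all 17199 eligible genes 49.3% had a positive rho, and 100 were members.

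**Figure D2:**
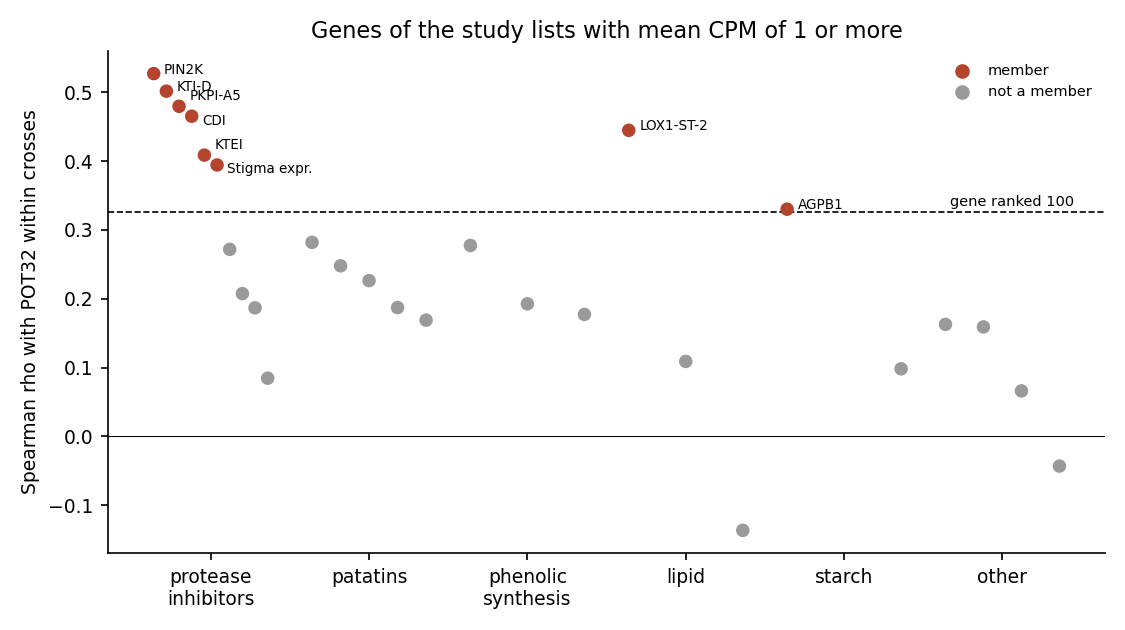
Spearman rho with POT32 within crosses for the eligible genes of the candidate list, together with the protease inhibitors of both lists, grouped by role, with members in red and the dashed line at the gene ranked 100. Members lie in the protease inhibitor, lipid and starch groups. All patatins and phenolic synthesis genes of the candidate list lie between 0 and the line, and phenolic genes of the other list are not drawn.

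The other oxidase genes, which the rule set aside, followed POT32 to very different degrees. The closest was PGSC0003DMG400018914, a polyphenol oxidase gene with a neighbouring identifier on chromosome 8, with a rho of 0.441 at a mean of 1.83 CPM. Polyphenol oxidase A (PGSC0003DMG400018917) had 0.274 at a mean of 0.717 CPM. PGSC0003DMG400029576 had 0.121 and catechol oxidase B (COB) had 0.103, although both were well detected, at means of 19.7 and 24.2 CPM. The sign of both differed between libraries of biological replicates 1 and 2, with 0.226 and -0.365 for PGSC0003DMG400029576 and 0.209 and -0.393 for COB. Polyphenol oxidase A had 0.424 and -0.151 in the same order, and PGSC0003DMG400018914 had 0.461 and 0.301. Among members 95 had a positive rho with PGSC0003DMG400018914, against 43.4% of eligible genes, while the numbers were 66 members against 39.4% for PGSC0003DMG400029576 and 74 members against 43.1% for COB. These correlations share the libraries that chose the members.

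The gene ranked 1 was PGSC0003DMG400029085, for which no annotation was used here. It had a rho of 0.553 with a mean of 6.26 CPM and a range from 0.0606 to 29.3 CPM, and its correlation with POT32 was positive in all 11 crosses. Of the remaining unnamed genes in the first 10, PGSC0003DMG400004548 ranked 3 with 0.505 at a mean of 7.54 CPM, PGSC0003DMG400004378 ranked 6 with 0.472 at 1.57 CPM, and PGSC0003DMG400020811 ranked 8 with 0.462 at 22.6 CPM. PGSC0003DMG400010470 ranked 9 with 0.4502 at 8.63 CPM and PGSC0003DMG400006161 ranked 10 with 0.449 at 2.24 CPM. The members spanned the whole range of levels. A mean between 1 and 10 CPM was found for 48 of them (40.6% of eligible genes), between 10 and 100 CPM for 34 (46.6%), between 100 and 1000 CPM for 16 (12.3%), and above that for 2. The members with the highest mean CPM, a measure not corrected for transcript length, were PGSC0003DMG400031877 (3543 CPM), PGSC0003DMG400000678 (1574 CPM), PGSC0003DMG400001598 (801 CPM), LOX1-ST-2 (787 CPM) and AGPB1 (655 CPM).

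Within crosses the members were more variable than other genes. The median SD of log2(CPM+1) within crosses was 0.681 for members and 0.345 for eligible genes. This SD was taken on the same cross-centred values that chose the members, so it is a description only. KTI-D was among the most variable, with 1.103 to 530.5 CPM over the 100 libraries and a median of 34.6 CPM. PIN2K had 23.4 to 937 CPM (median 214 CPM), PKPI-A5 had 38.1 to 2598 CPM (median 415 CPM), CDI had 8.57 to 1774 CPM (median 236 CPM) and KTEI had 1.55 to 835 CPM (median 100.7 CPM). LOX1-ST-2 had 56.0 to 8175 CPM with a median of 528 CPM, and its highest library, 2121_2, held 33.3% of all its CPM in the 26 libraries outside both bruising groups. AGPB1 was steadier, between 339 and 1194 CPM. In bulk tissue from the site of the bruise fewer cells of a type and less RNA per cell cannot be told apart.

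**Figure D3:**
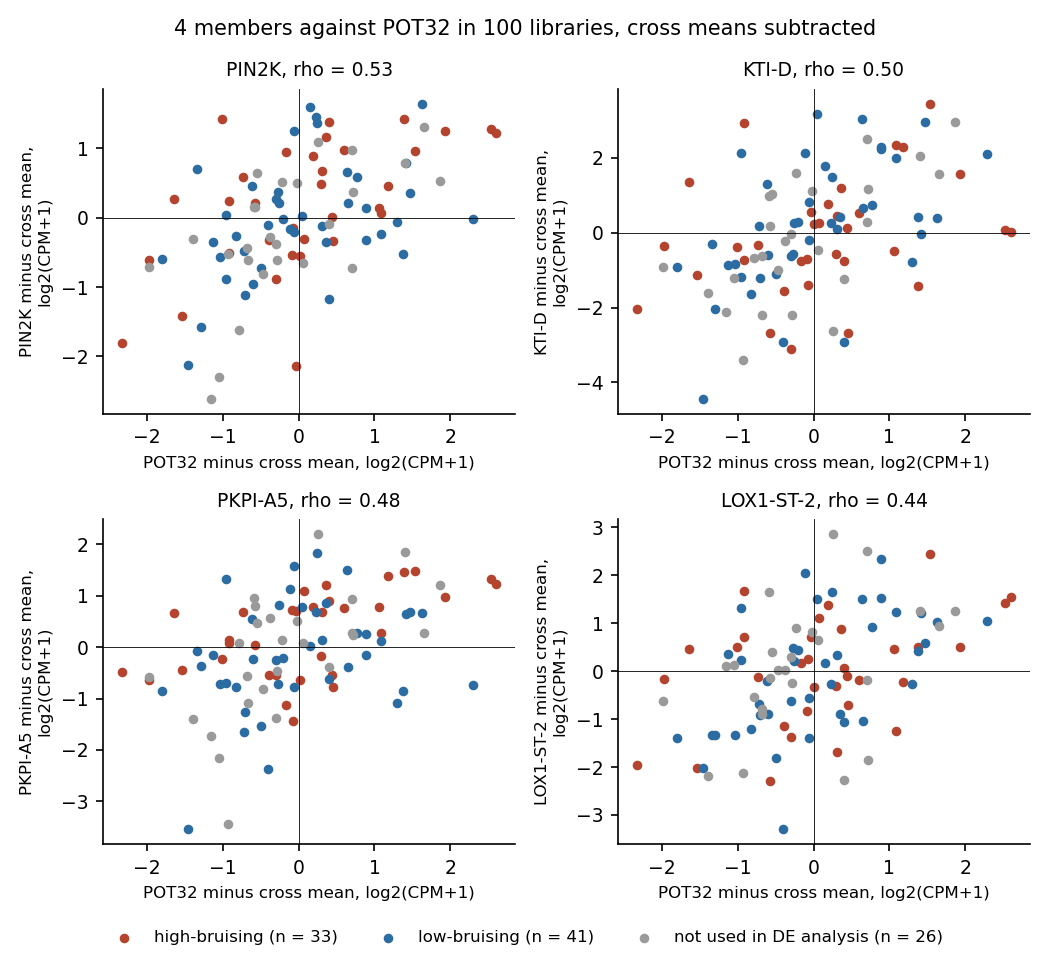
Deviation from the cross mean of log2(CPM+1) for PIN2K, KTI-D, PKPI-A5 and LOX1-ST-2 (y axes) against that of POT32 (x axis), 1 point per library, coloured by bruising group. All groups lie along a rising cloud in each panel, with rho of 0.53, 0.50, 0.48 and 0.44, and with wide scatter around it.

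Values in parts of the libraries are a description only, because the same libraries chose the members and a positive rho in most parts follows from that choice. Taken cross by cross, a member's rho with POT32 was positive in 7 to 11 of the 11 crosses (median 9). The members' median rho was largest in cross 2183 (0.5, n = 5) and cross 2159 (0.497, n = 16), and in cross 2159 it was above 0 for 99 members. It was smallest in cross 2175 (0.0476, n = 8), where 55 members were above 0 against 51.2% of eligible genes. Cross 2175 was also the cross in which POT32 varied least, from 1.57 to 4.48 CPM. In the bruising groups, which are likewise parts of the libraries that made the choice, rho was positive for 98 members in high-bruising libraries (median 0.289, 46.0% of eligible genes positive) and for all 100 in low-bruising libraries (median 0.373, 50.8% of eligible genes). It was positive for 96 in the libraries outside both groups (median 0.427, 49.2% of eligible genes). Single members differed between groups. CDI had a rho of 0.720 in high-bruising libraries and 0.199 in low-bruising libraries, and PKPI-A5 had 0.676 and 0.229 in the same order. KTEI (0.538 and 0.284), AGPB1 (0.407 and 0.164) and PIN2K (0.504 and 0.407) were likewise higher in high-bruising libraries. The other named members were higher in low-bruising libraries, LOX1-ST-2 with 0.278 and 0.512, KTI-D with 0.366 and 0.521, and PGSC0003DMG400010136 with 0.290 and 0.310. These differences were not tested.

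The labels divided the libraries into biol rep 1 (61 libraries) and biol rep 2 (39 libraries) of different genotypes. The choice was repeated in one set and read in the other, as a description. Cross means were taken within each set and so rested on fewer libraries, in biol rep 2 on 2165_2 alone for cross 2165. The 100 genes chosen in biol rep 1 alone had a median rho of 0.431 there. In biol rep 2 the same genes had a median of 0.156 and 69 of them were above 0, against 54.1% of eligible genes with a median of 0.0211. Of these genes 39 were members, and they included all 6 protease inhibitors and LOX1-ST-2, each with a positive rho in biol rep 2: 0.596 for KTI-D, 0.449 for PIN2K, 0.338 for CDI, 0.329 for KTEI, 0.328 for PKPI-A5, 0.325 for PGSC0003DMG400010136 and 0.249 for LOX1-ST-2. Members had been chosen with the biol rep 2 libraries included, so these values are not independent evidence. In the other direction, where the choice rested on 39 libraries, the median was lower. The genes chosen in biol rep 2 had a median of 0.0616 in biol rep 1, with 61 above 0 against 46.6% of eligible genes, and KTI-D was the only gene of the study's lists among them, with a rho of 0.458 in biol rep 1. AGPB1 had -0.0897 in biol rep 2 and 0.310 in biol rep 1.

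The members were linked among themselves, in part by the way they were chosen. Of 4950 pairs 92.9% had a positive rho within crosses, with a median of 0.208, whereas 54.0% of all pairs of eligible genes were positive and their median was 0.0136. The 15 pairs among the 6 protease inhibitors were much closer, between 0.447 and 0.928 with a median of 0.631. The closest pair was PKPI-A5 and CDI, and KTEI had 0.694 with CDI and 0.658 with PKPI-A5. KTI-D, on another chromosome, had 0.663 with PGSC0003DMG400010136, 0.622 with CDI and 0.613 with PKPI-A5. LOX1-ST-2 had 0.624 with KTI-D, 0.581 with CDI and 0.579 with PKPI-A5.

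The other 94 members differed in how closely they followed the protease inhibitors. As a measure, the median of a gene's rho with the 6 inhibitors was taken. It was 0.3 or more for 27 members, between 0 and 0.3 for 64, and below 0 for 3. Both the members and the inhibitors were chosen for their rho with POT32, which raises their rho with each other, so these values describe only how the members differ among themselves. The highest were PGSC0003DMG400004548 (0.643), PGSC0003DMG400010470 (0.595), PGSC0003DMG400015289 (0.557), PGSC0003DMG400036797 (0.554) and PGSC0003DMG400010145 (0.553). In contrast PGSC0003DMG400020811, ranked 8, had only 0.184 with PIN2K, 0.156 with KTI-D, 0.0869 with CDI and 0.0800 with PKPI-A5, and the lowest median was -0.0345, for PGSC0003DMG400025446. PIN2K and PGSC0003DMG400004548, which have consecutive identifiers, had a rho of 0.737, and PGSC0003DMG400010470 and PGSC0003DMG400010471 had 0.567. Whether the genes of a pair share sequence was not tested.

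General properties of the libraries were set beside these values. Log2 library size had a median rho of -0.00355 with the members. The number of genes detected in a library had a positive rho with 87 members (median 0.120), against 54.5% of eligible genes. The share of counts in the 50 most abundant genes had a positive rho with 59 members (median 0.0318), against 32.7% of eligible genes (median -0.061), and its rho was 0.394 for PKPI-A5, 0.389 for CDI, 0.324 for KTI-D, 0.307 for LOX1-ST-2 and 0.264 for PIN2K. The part of either property in the correlations with POT32 was not tested.

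The levels of whole crosses were independent of the rule, because cross means had been subtracted. Over the 11 cross means of log2(CPM+1), 64 of the 100 members had a positive rho with POT32 (median 0.109), and 63.9% of eligible genes did (median 0.118). With TMM scaling the numbers were 54 members and 49.0% of eligible genes. The comparison moved both ways with single crosses, to 75 members and 63.7% of eligible genes without cross 2165 and to 53 members and 67.6% without cross 2159. Several of the closest members ran against POT32 at this level. The Spearman correlation over cross means was -0.573 for PIN2K, -0.336 for CDI, -0.327 for PKPI-A5 and -0.455 for PGSC0003DMG400010136, and it was 0 for KTI-D. PIN2K had its highest cross median, 424 CPM, in cross 2170, one of those with the lowest POT32. Crosses share a parent, so these values describe 11 related families.

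**Figure D4:**
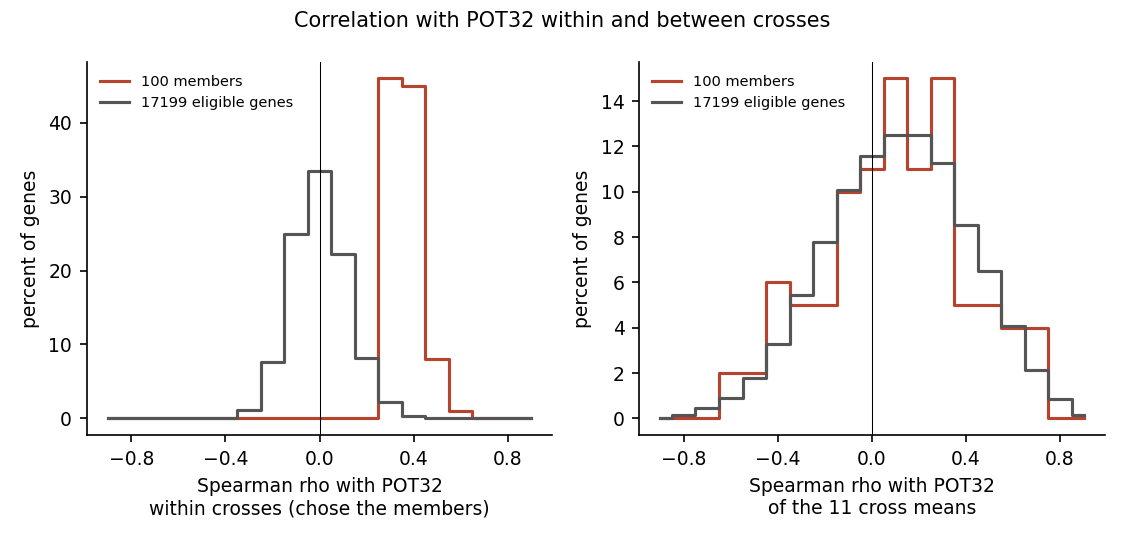
Distribution of Spearman rho with POT32 (x axis) in percent of genes (y axis) for the 100 members in red and 17199 eligible genes in grey, within crosses (left) and over the 11 cross means (right). The members are apart on the left, where they were chosen, and lie over the other genes on the right, with medians of 0.109 and 0.118.

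The difference among crosses passed the edgeR quasi-likelihood F test at an adjusted p under 0.05 for 81 members. This was the case for 67.1% of all genes and for 79.1% of genes with a mean of 1 CPM or more, so the members were near the background of genes of their level. The share of a gene's variance that lay between crosses had its median at 26.3% for members and at 30.9% for eligible genes. The smallest p values among members belonged to PGSC0003DMG400005860 (adjusted p = 2.48e-19), PGSC0003DMG400028137 (adjusted p = 3.98e-17) and PGSC0003DMG400006462 (adjusted p = 3.52e-15). PGSC0003DMG400005860 had cross medians from 7.42 CPM in cross 2175 to 112 CPM in cross 2155. PGSC0003DMG400006462 had 0.413 CPM in cross 2165 and 16.4 CPM in cross 2183, and PGSC0003DMG400028137 was likewise lowest in cross 2165 (13.1 CPM) and highest in cross 2183 (58.3 CPM). Of the named members 7 passed, with adjusted p between 1.56e-06 for AGPB1 and 0.0476 for CDI. PIN2K did not pass (adjusted p = 0.246). With limma-voom 75 members passed, against 69.8% of all genes and 82% of genes with a mean of 1 CPM or more, and CDI (adjusted p = 0.0813), KTEI (adjusted p = 0.109) and PGSC0003DMG400010136 (adjusted p = 0.111) missed the threshold as well.

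High-bruising and low-bruising tubers were then compared, a division that the rule did not use. POT32 itself had a median of 7.01 CPM (0.380 to 71.9 CPM) and a mean of 13.3 ± 16.3 CPM (SD, n = 33) in high-bruising libraries, and a median of 4.84 CPM (0.365 to 81.6 CPM) and a mean of 9.65 ± 14.5 CPM (SD, n = 41) in low-bruising libraries. The groups overlapped over nearly their whole range, and the highest library was low-bruising. The log2 fold change was 0.45 ± 0.38 (SE, edgeR quasi-likelihood test, adjusted p = 0.671). With cross as a term it was -0.00095 (adjusted p = 1). It also depended on which crosses were included, with 0.18 without cross 2165 and 0.76 without cross 2159, and it did not pass in either case.

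No member passed the threshold between the bruising groups with edgeR (0 of 100, against 0.183% of all genes tested). An unadjusted p under 0.05 was found for 15 members, against 12.4% of all genes and 13.8% of genes with a mean of 1 CPM or more. Among them 5 were higher in high-bruising tubers (5.94% of all genes and 6.63% of genes with a mean of 1 CPM or more). The other 10 were lower (6.42% and 7.2%). This split depended on the fit, with 5 higher and 4 lower in limma-voom and also without cross 2165, 6 higher and 4 lower without cross 2177, and 2 higher and 3 lower with cross as a term. Log2 fold changes of members ranged from -1.68 to 0.61 with a median of -0.04, compared with 0.00094 over all genes, and 39 members had a value above 0, compared with 50.2% of all genes. With cross as a term 48 members had a value above 0, compared with 48.2% of all genes. DESeq2 called 1 member (0.23% of all genes) and had 15 under an unadjusted p of 0.05 (12.1%, and 14.7% of genes with a mean of 1 CPM or more). Limma-voom called 0 (0% of all genes) and had 9 under that unadjusted p (11.1% and 13% in the same order). With cross as a term, edgeR called 0 (0% of all genes) and had 5 (5.34% and 5.24%).

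The members with the largest negative fold changes included a pair of protease inhibitors. PGSC0003DMG400010136, the Kunitz-family stigma expressed protein gene, had a median of 1.55 CPM (0 to 20.1 CPM) in high-bruising libraries and 2.54 CPM (0 to 36.9 CPM) in low-bruising libraries. Its log2 fold change was -1.68 ± 0.46 (SE, edgeR, adjusted p = 0.0964), and it was the member that DESeq2 called (adjusted p = 0.0477). The study had listed it as differentially expressed in these same libraries, so this is not independent evidence. KTI-D had a median of 23.2 CPM (1.103 to 146 CPM) in high-bruising libraries and 45.6 CPM (1.29 to 451 CPM) in low-bruising libraries. Its log2 fold change was -1.29 ± 0.39 (SE, edgeR, adjusted p = 0.134). With cross as a term it was -1.08 (adjusted p = 0.889). The upper ends of the ranges were much higher in low-bruising libraries for both genes, and the ranges overlapped. PGSC0003DMG400024003 completed the 3 lowest, with 14.1 CPM in high-bruising libraries and 29.0 CPM in low-bruising libraries (medians) and a log2 fold change of -1.41 ± 0.51 (SE, edgeR, adjusted p = 0.219). Cross medians of PGSC0003DMG400010136 and PGSC0003DMG400024003 were lowest in cross 2165 (0.582 and 3.66 CPM), with 7 high-bruising and 2 low-bruising libraries. Their highest medians were in crosses 2175 (9.76 CPM) and 2177 (142 CPM), where the groups were balanced. KTI-D was lowest in cross 2121 (10.2 CPM), with 6 and 1, and highest in cross 2170 (91.7 CPM), with no high-bruising library. With cross as a term none of the 3 passed.

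None of the other inhibitors passed the test between the groups. PIN2K had a median of 266 CPM in high-bruising libraries and 212 CPM in low-bruising libraries, with a log2 fold change of 0.16 ± 0.20 (SE, edgeR, adjusted p = 0.809). CDI had 254 CPM and 259 CPM in the same order, with 0.02 ± 0.29 (SE, edgeR, adjusted p = 0.988), and PKPI-A5 had 411 CPM and 490.0 CPM, with -0.10 ± 0.24 (SE, edgeR, adjusted p = 0.915). KTEI had 100.8 CPM in high-bruising libraries and 103 CPM in low-bruising libraries. Its log2 fold change, a ratio of fitted means, was 0.47 ± 0.35 (SE, edgeR, adjusted p = 0.626). LOX1-ST-2 had 592 CPM in high-bruising libraries and 443 CPM in low-bruising libraries, while its fitted log2 fold change was -0.20 ± 0.31 (SE, edgeR, adjusted p = 0.843), and the low-bruising group held a library with 5656 CPM.

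Small positive differences were measured for a few members. AGPB1 had a median of 699.8 CPM (404 to 1194 CPM) in high-bruising libraries and 626 CPM (339 to 978 CPM) in low-bruising libraries, a log2 fold change of 0.22 ± 0.09 (SE, edgeR, adjusted p = 0.296). PGSC0003DMG400009122 had 67.8 CPM in high-bruising libraries and 42.003 CPM in low-bruising libraries (medians), with 0.40 ± 0.13 (SE, edgeR, adjusted p = 0.177), and it passed the threshold without cross 2170, which held no high-bruising library (log2 fold change 0.59, adjusted p = 0.0283). PGSC0003DMG400024965 had 22.9 CPM and 18.0 CPM in the same order, with 0.38 ± 0.12 (SE, edgeR, adjusted p = 0.136). Cross medians of PGSC0003DMG400009122 and PGSC0003DMG400024965 were highest in cross 2165 (92.2 and 27.1 CPM), which held 7 high-bruising and 2 low-bruising libraries. Their lowest medians were in crosses 2183 (29.4 CPM) and 2170 (14.5 CPM), which held no high-bruising library. AGPB1 was highest in cross 2121 (767 CPM), with 6 and 1, and lowest in cross 2172 (448 CPM), with 2 and 2. With cross as a term no member passed. Apart from KTEI, the largest positive fold changes belonged to genes near the lower limit of detection, PGSC0003DMG400010597 (0.61 ± 0.34, SE, median 1.33 CPM in high-bruising and 0.992 CPM in low-bruising libraries) and PGSC0003DMG400012316 (0.41 ± 0.30, SE, median 1.40 CPM and 0.744 CPM).

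**Figure D5:**
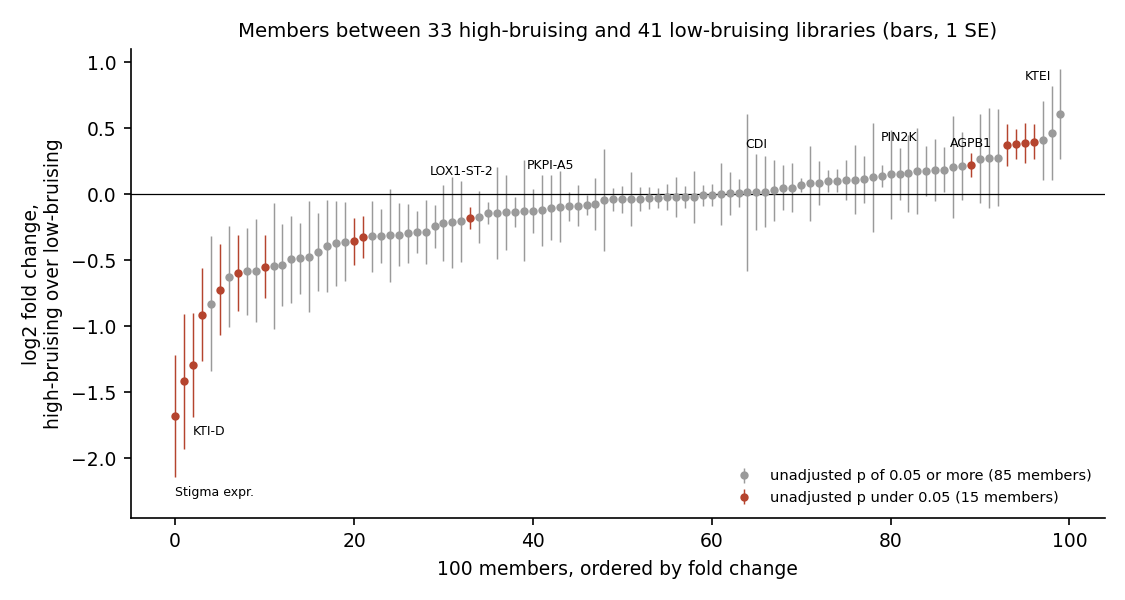
Log2 fold change of high-bruising over low-bruising libraries (y axis) for the 100 members in order of their value (x axis), with bars of 1 SE and the 15 members with an unadjusted p under 0.05 in red. Values run from -1.68 for the stigma expressed protein gene to 0.61, 54 members lie within 1 SE of 0, and no member passed after adjustment.

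Whether the difference between bruising groups varied among crosses was asked in the 9 crosses that held both groups. No member passed (0 of 100 with edgeR, against 0.0159% of all genes tested), 7 had an unadjusted p under 0.05 (5.27% of all genes), and POT32 had an unadjusted p of 0.364. Biol rep 2 and biol rep 1, compared with cross as a term, likewise gave no member past the threshold (0 of 100 with edgeR, against 0% of all genes tested), 4 members had an unadjusted p under 0.05 (5.44% of all genes), and POT32 had a log2 fold change of -0.06 ± 0.29 (SE, adjusted p = 0.999).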

How the data were processed

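Polyadenylated RNA of bruised tubers was sequenced from stranded Lexogen SENSE libraries. Per the labels and the study's methods, the authors checked reads with FastQC 0.11.7, aligned them to the PGSC-DM potato genome with STAR 2.6.1 and deposited unnormalised read counts of uniquely mapped reads per gene, in 1 table of 25163 genes and 100 samples. Samples were grouped by their labels. CPM was the count over the column total. Tests across all genes used edgeR 4.0.16 (TMM, quasi-likelihood F test, Benjamini-Hochberg adjustment over 25163 genes, threshold 0.05), with DESeq2 1.42.0 and limma 3.58.1 (voom) as alternatives, in R 4.3.3, and correlations used Python with scipy. An SE is the log2 fold change over the square root of F. Scripts were tested on simulated data. Other alternatives changed size factors, low-count filters, covariates, correlation, pseudocount (0.1 for 1) and left out each cross.

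The members and lists were chosen with earlier results of these data known. Named genes were POT32 and other oxidases, members of the study's lists and its candidate genes, the first 10 ranks, the genes on either side of the list's edge, and the extremes of level, of fold change and among crosses. Further genes, such as those that follow the inhibitors, were named after their values were seen. Of the study's 9 oxidase genes 6 were in the table. Each genotype had 1 library, so p-values measure the spread among genotypes. Promoter sequences were not analysed here, and gene names came only from the study's tables.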

Additional observations from a re-analysis of the deposited data

Results flagged for a closer look

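Within crosses of 4 to 10 libraries, POT32, the better detected oxidases and the named members were checked for a library far from all others of its cross, on the log2(CPM+1) scale. Of 144 combinations of gene and cross 9 had such a library, and chance gives about 1 in 20. Genotype 2183_6, outside both bruising groups, stood out for 3 genes: it had 18.4 CPM of the oxidase PGSC0003DMG400018914 (cross median 2.62 CPM), 3.27 CPM of PGSC0003DMG400004378 (0.862 CPM) and 6.73 CPM of the oxidase PGSC0003DMG400029576 (64.3 CPM). PGSC0003DMG400018914 was also high in 2177_7, with 14.6 CPM (cross median 1.39 CPM). KTEI was low in a single library of each of 3 crosses, with 6.56 CPM in low-bruising 2165_1 (cross median 81.4 CPM), 9.25 CPM in high-bruising 2168_2 (126 CPM) and 1.55 CPM in 2172_1 (60.4 CPM). PGSC0003DMG400010136 had 24.98 CPM in 2155_9, and AGPB1 had 435 CPM in low-bruising 2170_2 (cross median 698 CPM).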

How the results depend on the processing

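The list depended on the libraries and on the centring. Without subtraction of cross means 15 members were kept, with high-bruising and low-bruising libraries only 49, with biol rep 1 only 39, and with biol rep 2 only, an alternative chosen after seeing the data, 19. Leaving out each cross kept 64 (without 2159, 2165 or 2168) to 92 members. TMM scaling, Pearson correlation, a library size term, a mean of 5 CPM and log2(CPM+0.1) kept 68 to 96. The first 10 ranks stayed in all lists without one cross. Without subtraction of cross means 3 of the first 10 and 1 of the 8 named members were kept, and with biol rep 2 only again 3 and 1. With high-bruising and low-bruising libraries only the numbers were 10 and 5, and with biol rep 1 only 8 and 7. Between bruising groups 1 member was called with DESeq2 and 0 to 1 without one cross, and the POT32 log2 fold change was -0.00095 with cross as a term and 0.18 to 0.76 without one cross. The median over members stayed between -0.09 and -0.01. Among all genes 46 were called with edgeR, 0 with limma-voom or a cross term, 3 after filterByExpr and 14 to 85 without one cross. Among crosses 73 to 81 members were called in all alternatives and POT32 passed in each. Cross means followed POT32 for 53 members (without 2159, 67.6% of eligible genes) to 75 (without 2165, 63.7%). Biol rep numbers mark different genotypes and pair no samples. With biol rep as a replicate block no member, 28 genes and POT32 at 0.38 (log2) resulted between bruising groups, and 78 members among crosses. At 7 to 1269 reads, low POT32 values carry the larger counting error.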
